A study of Sus scrofa with 59 samples.

Results

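The longissimus dorsi muscles of 59 pigs were divided by their level of PON3, the gene of paraoxonase 3. The PON3-high group comprised the 21 pigs whose PON3 probe set stood at 7 or more on the log2 scale of the deposited array values. The PON3-low group comprised the 38 pigs below 7. Both groups came from 1 cross, which the labels call LD/LW x Duroc, and all the pigs were 170 days old and had eaten freely during the feeding period. No allele, treatment or agent was given for any pig, and nothing separates the groups in the labels: the pigs were chosen by the measured PON3 value alone. Muscle was frozen at slaughter and its RNA was hybridised to a porcine Affymetrix array, 1 array per pig, so that p-values measure the spread between pigs. The labels give no sex and no array batch. The traits recorded in the muscle were not analysed here.

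Paraoxonases are a small family of calcium-dependent enzymes that hydrolyse lactones, and some members also cleave esters and organophosphates. PON1 and PON3 are made mainly in the liver and travel in blood on high-density lipoprotein, whereas PON2 stays inside cells in many tissues. The family is known for limiting lipid oxidation, and the 3 genes lie side by side in the genome.

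The groups were selected on the PON3 values, which are given as a description, with no test. In the PON3-high muscles the lowest, median and highest values were 7.54, 8.72 and 8.95, with a mean of 8.57 ± 0.36 (SD, n = 21). In the PON3-low muscles they were 4.16, 4.93 and 6.53, with a mean of 5.02 ± 0.53 (SD, n = 38). The means lay 3.55 log2 units apart on this scale. All but 1 of the PON3-low values lay below 6.28, the median level of the probe sets on the array, where dim signals are compressed, so that no fold is given. The largest gap between neighbouring pigs, 1.01, ran from 6.53 to 7.54, and the next largest were 0.43 and 0.39. Just below the threshold lay pigs at 6.53, 6.20 and 5.81, and just above it pigs at 7.54, 7.79 and 8.22. These 6 pigs filled the range between a dense low cluster and a dense high cluster. Only 1 probe set on the array was annotated to PON3, so no other probe set of the gene could be set beside it.

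**Figure D1:**
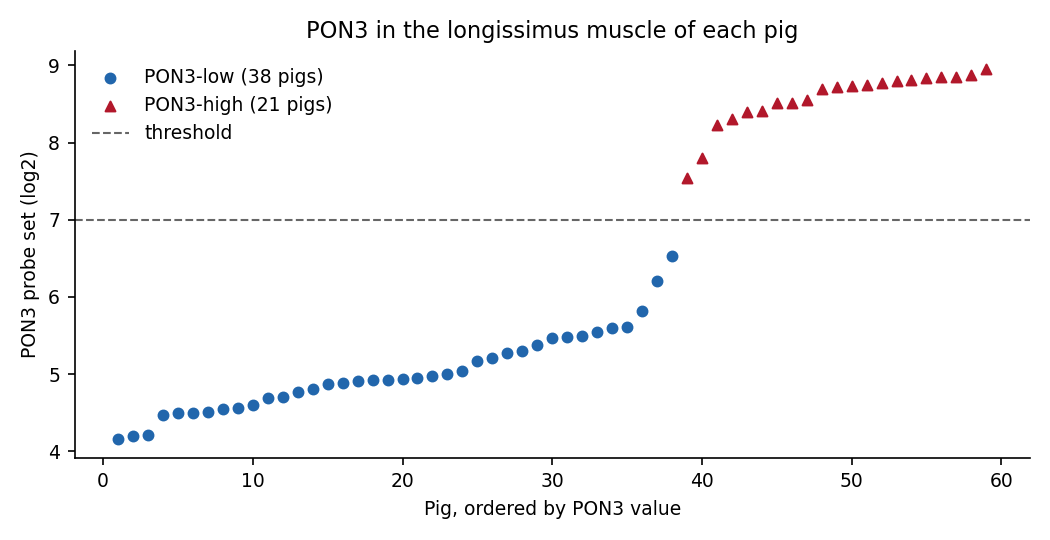
PON3 level (log2, vertical axis) in each of the 59 pigs, ordered by value (horizontal axis); blue circles are PON3-low pigs, red triangles PON3-high pigs and the dashed line is the threshold of 7. No pig lies between 6.53 and 7.54.

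The tissue label held in both groups. All 8 muscle fibre markers on the array were measured, and none differed at an unadjusted p under 0.05, with differences from -0.0039 to 0.03. CKM, the muscle creatine kinase, averaged 14.63 in PON3-high and 14.62 in PON3-low muscles, near the top of the array's range. Of 14 hepatocyte markers on the array, only APOA1 passed the filter on dim probe sets (a mean of at least 6.28 over all pigs). ALB, the albumin gene, averaged 4.85 in PON3-high and 4.69 in PON3-low muscles, and TTR, the transthyretin gene, 5.90 and 5.85, all below that filter. APOA1, the main protein of high-density lipoprotein, ranged from 7.55 to 9.67 (median 8.09) in PON3-high and from 7.10 to 9.30 (median 7.86) in PON3-low muscles. Its difference of 0.21 ± 0.11 (SE) had an unadjusted p of 0.061, and the ranges overlapped over most of their length. None of the 10 T and NK cell markers on the array passed the filter. Of the measured markers, 0 of 8 macrophage and 0 of 8 endothelial genes differed at an unadjusted p under 0.05.

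With PON3 itself left out, 11967 probe sets were compared between the groups with limma, a linear model that shares variance information across probe sets, and p-values were adjusted over all of them by the Benjamini-Hochberg method with a threshold of 0.05. Of these, 1 probe set (0.00836%) passed. It was higher in the PON3-high muscles and carried no gene symbol. None of the 4923 named genes passed, each represented by its brightest probe set. At an unadjusted p under 0.05 there were 1291 probe sets (10.8%), 604 of them higher (5.05%) and 687 lower (5.74%), and 485 named genes (9.85%), of which 202 (4.1%) were higher and 283 (5.75%) lower in PON3-high muscles. No probe set other than PON3 separated the groups without overlap. The precision was high: 96.5% of probe sets had a 95% interval of the difference that lay wholly within 0.5 log2 units of 0, and the median SE of a gene was 0.053. Among all tested probe sets the differences ran from -0.93 to 1.06.

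The probe set that passed, Ssc.2217.2.S1_at, had no symbol in the annotation used. In PON3-high muscles its lowest, median and highest values were 9.81, 10.27 and 10.63, and in PON3-low muscles 9.50, 9.90 and 10.25. Of the 21 PON3-high pigs, 19 lay above the median of the PON3-low pigs and 12 above their highest value, while the ranges still overlapped. The difference was 0.31 ± 0.053 (SE), with a limma adjusted p of 0.0029. Inside the groups it had no slope on PON3 that passed the test (adjusted p = 0.42). With the PON3 value in place of the 2 groups, its adjusted p was 0.061. The next probe sets without a symbol, by p, were Ssc.11821.1.A1_at (-0.23), Ssc.2616.1.A1_at (0.49), Ssc.30579.1.A1_at (-0.16) and Ssc.8051.1.A1_at (0.38), none of which passed.

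**Figure D2:**
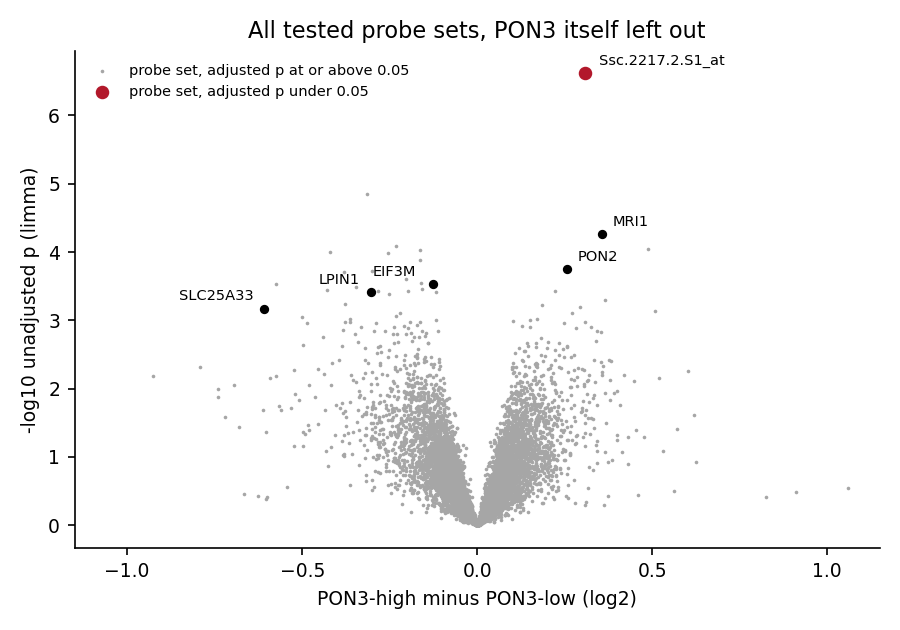
Difference between PON3-high and PON3-low muscles (log2, horizontal axis) against -log10 of limma's unadjusted p (vertical axis) for each tested probe set, with the PON3 probe set left out. Ssc.2217.2.S1_at, in red, is the 1 probe set past the adjusted threshold; the labelled genes in black did not pass.

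Among named genes, the 15 with the smallest unadjusted p are therefore given as values that did not pass, with limma adjusted p from 0.16 to 0.26. The paraoxonase gene PON2 came after MRI1 and PFDN6. It ranged from 9.65 to 10.45 (median 10.03) in PON3-high and from 9.16 to 10.39 (median 9.76) in PON3-low muscles, and 19 of 21 PON3-high pigs lay above the PON3-low median. Its difference was 0.26 ± 0.064 (SE), with an unadjusted p of 0.00018 and an adjusted p of 0.18. PON2 was the only other measured member of the family, since PON1 had no annotated probe set.

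First by p stood MRI1, an enzyme of the methionine salvage pathway. MRI1 ranged from 7.17 to 8.18 (median 7.65) in PON3-high and from 6.56 to 7.76 (median 7.38) in PON3-low muscles. The difference was 0.36 ± 0.082 (SE), with an adjusted p of 0.16 and 18 of 21 PON3-high pigs above the PON3-low median. The other tested probe set of MRI1 differed by 0.053 (unadjusted p = 0.21). The other higher genes of the 15 were RAB3GAP2 (0.22, with 0.055 and 0.033 in its 2 dimmer probe sets), a regulator of Rab GTPases, TMEM98 (0.25), a membrane protein, and ADCK5 (0.10), a mitochondrial kinase-like protein.

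The lower genes of the 15 were more numerous. LPIN1, the muscle phosphatidate phosphatase that makes diacylglycerol, ranged from 9.86 to 10.90 (median 10.33) in PON3-high and from 10.07 to 11.14 (median 10.68) in PON3-low muscles, a difference of -0.30 ± 0.081 (SE). SLC25A33, a mitochondrial pyrimidine nucleotide carrier, had medians of 7.69 and 8.17 and a difference of -0.61 ± 0.17 (SE). UCHL1, a deubiquitinating enzyme, had medians of 8.54 and 9.00 and a difference of -0.49 ± 0.14 (SE). In each of these genes 15 or 16 of the 21 PON3-high pigs lay below the PON3-low median, and the ranges overlapped widely. Smaller differences belonged to EIF3M (-0.13), a translation initiation factor subunit, PFDN6 (-0.16), a prefoldin subunit, PSMD13 (-0.12), a proteasome subunit, NTMT1 (-0.28), an N-terminal methyltransferase, NUBP1 (-0.22), an iron-sulfur cluster assembly factor, PIR (-0.23), an iron-binding protein, and OTUB1 (-0.16), a deubiquitinating enzyme. EIF3M is an example of a small difference: 19 of 21 PON3-high pigs lay below the PON3-low median, with ranges of 11.35 to 11.67 and 11.40 to 11.91. The dimmer probe set of EIF3M differed by 0.059 in the other direction (unadjusted p = 0.42).

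The genes whose values over the 59 pigs were most like PON3, ranked by Pearson r, were MRI1, PON2, RAB3GAP2, ADCK5 and PAQR6 on the positive side. On the negative side they were EIF3M, LPIN1, PSMD13, FDX1 and VAPB. The r itself is not given, since PON3 fell into separate clusters. The ranking uses the values that set the groups, so it largely repeats the group difference and adds no separate support. PAQR6, a membrane receptor for progestins, differed by 0.21 (unadjusted p = 0.0074), FDX1, the mitochondrial ferredoxin, by -0.19 (0.0015) and in its dimmer probe set by -0.056 (0.42), and VAPB, an endoplasmic reticulum membrane protein, by -0.14 (0.0022). None of the 3 passed the adjusted threshold. RBM18, an RNA-binding protein gene, was singled out after its values were seen, because 1 of its 2 tested probe sets came second of all. That probe set averaged 9.22 in PON3-high and 9.53 in PON3-low muscles, a difference of -0.31 (adjusted p = 0.086), while its brighter probe set differed by -0.056 (adjusted p = 0.64).

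PON3 lies on chromosome 9 in the RefSeq gene table of assembly Sscrofa11.1, which served here for gene order only. Of the 10 protein-coding genes on each side, 10 genes had a tested probe set, 1 gene, DLX5, fell below the filter, and 9 had no annotated probe set. At an unadjusted p under 0.05, 4 of the 10 tested neighbours differed, 2 higher and 2 lower, beside 9.85% of all named genes. None passed the adjusted threshold. Over the whole chromosome, 30 of 228 tested genes (13.2%) had an unadjusted p under 0.05, compared with 9.69% of genes elsewhere.

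The higher neighbours were PON2, which is adjacent to PON3, and CASD1, a sialic acid O-acetyltransferase. CASD1 ranged from 9.34 to 9.95 (median 9.67) in PON3-high and from 9.12 to 9.89 (median 9.56) in PON3-low muscles, a difference of 0.14 ± 0.048 (SE). The lower neighbours were PDK4 and DYNC1I1. PDK4, the kinase that shuts down pyruvate dehydrogenase during fasting, lies 3 genes from PON3 and had 2 tested probe sets. The brighter ranged from 13.08 to 13.97 (median 13.56) in PON3-high and from 12.84 to 14.14 (median 13.74) in PON3-low muscles, a difference of -0.19 ± 0.069 (SE, unadjusted p = 0.0089). The other differed by -0.36 ± 0.13 (SE, unadjusted p = 0.0063), with 15 of 21 PON3-high pigs below the PON3-low median. DYNC1I1, a dynein intermediate chain, differed by -0.29 ± 0.14 (SE, unadjusted p = 0.036). The remaining tested neighbours, TFPI2, GNG11, BET1, COL1A2, PEG10 and ASNS, had 95% intervals that included 0. PON2 and PDK4, on the same side of PON3, thus had differences of opposite sign. Once the first principal component of the tested probe sets was a covariate, the probe sets of PDK4 differed by -0.10 (unadjusted p = 0.096) and -0.20 (0.072) and DYNC1I1 by -0.11 (0.33), while PON2 differed by 0.24 (0.00051) and CASD1 by 0.16 (0.0017).

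**Figure D3:**
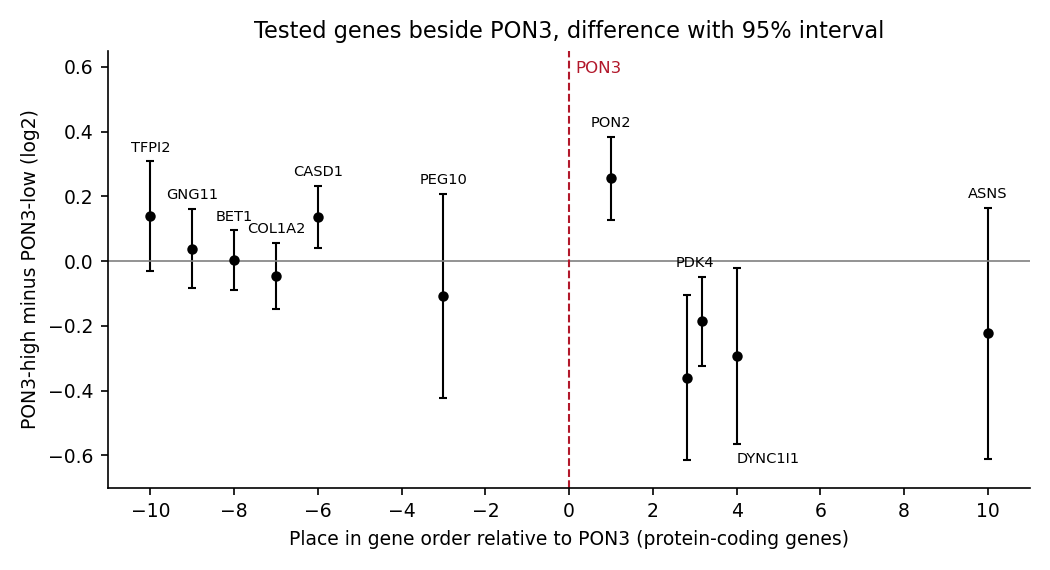
Difference between PON3-high and PON3-low muscles (log2, vertical axis) with 95% intervals for the tested genes beside PON3, by place in the gene order (horizontal axis; PDK4 has 2 probe sets). PON2 and CASD1 lie above 0, PDK4 and DYNC1I1 below it, and none passed the adjusted threshold.

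Antioxidant and lipoprotein genes, the pathways in which paraoxonases act, included no gene that passed the adjusted threshold. Of 32 tested antioxidant genes, 2 were higher and 4 lower at an unadjusted p under 0.05, beside 4.1% of all named genes higher and 5.75% lower, with a median difference of 0.0014 beside -0.0016 over all named genes. PRDX1, a peroxiredoxin, averaged 10.13 in PON3-high and 10.33 in PON3-low muscles (unadjusted p = 0.0093), and HMOX2, a heme oxygenase, 8.91 and 9.16 (0.0097). The probe sets of TXNRD1, a thioredoxin reductase, disagreed: the brightest was higher by 0.17 (unadjusted p = 0.0022) and 2 others were lower by 0.30 and 0.22. Of 12 tested lipoprotein genes, 0 were higher and 1 was lower. That gene, PLTP, the phospholipid transfer protein, averaged 7.25 and 7.41 (unadjusted p = 0.0097). APOE, a lipoprotein ligand, averaged 7.62 and 7.61.

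Among 14 tested esterase and xenobiotic genes, 1 was higher and 1 lower at an unadjusted p under 0.05, beside 4.1% and 5.75% of all named genes. CYP3A29, a porcine drug-metabolising cytochrome P450 of a family of close paralogs, whose signals the array may not separate, ranged from 6.27 to 10.43 (median 8.07) in PON3-high and from 5.75 to 9.82 (median 7.82) in PON3-low muscles. Its difference was 0.62 ± 0.27 (SE, unadjusted p = 0.025, adjusted p = 0.42), and 16 of 21 PON3-high pigs lay above the PON3-low median. CYP27A1, a sterol hydroxylase, differed by -0.21 (unadjusted p = 0.011). Neither passed the adjusted threshold.

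Proteasome genes were mostly lower in PON3-high muscles. Of 27 tested subunits, 0 were higher and 12 lower at an unadjusted p under 0.05, with a median difference of -0.095, beside 5.75% of all genes lower. PSMB7, a catalytic core subunit, averaged 11.46 in PON3-high and 11.58 in PON3-low muscles (difference -0.12, unadjusted p = 0.0043), and PSMB4, a core subunit, 12.21 and 12.32 (-0.11, 0.010). No subunit passed the adjusted threshold. The first principal component of the tested probe sets, the subunits among them, moved with this and held 20.0% of the variance. Its group means differed by 0.57 SD (permutation test, p = 0.036). With the component as a covariate 1 of 27 subunits was lower at an unadjusted p under 0.05, beside 2.54% of all named genes.

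Genes of fasting and of the immediate early response were also mostly lower. The fasting list, which held targets of the PPAR nuclear receptors and other genes of the fasting response, had 0 higher and 5 lower of 13 tested genes at an unadjusted p under 0.05, beside 5.75% of all named genes lower, and a median difference of -0.17. UCP3, a mitochondrial uncoupling protein of muscle, ranged from 8.05 to 9.66 (median 8.95) in PON3-high and from 8.09 to 10.56 (median 9.41) in PON3-low muscles. Of the 21 PON3-high pigs, 20 lay below the PON3-low median of UCP3, with a difference of -0.39 ± 0.13 (SE, unadjusted p = 0.0038, adjusted p = 0.34). The others were PDK4, PLIN2 (-0.53), a lipid droplet coat protein, PPARGC1A (-0.48), a coactivator of mitochondrial genes, and FOXO1 (-0.22), a transcription factor of fasting. With the first principal component as a covariate, 1 of the 13 was lower, beside 2.54% of all named genes.

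The immediate early list, transcription factors and other genes induced rapidly by a stimulus, had 0 higher and 5 lower of 17 tested genes, beside the same 5.75%, and a median difference of -0.19. NR4A3, an orphan nuclear receptor, ranged from 5.11 to 9.02 (median 6.21) in PON3-high and from 4.94 to 10.32 (median 7.48) in PON3-low muscles, a difference of -0.93 ± 0.33 (SE, unadjusted p = 0.0065, adjusted p = 0.36). ATF3, a stress-induced factor, differed by -0.74, MYC by -0.45, JUN by -0.24 and FOSL2 by -0.23. The spread of these genes between pigs of 1 group exceeded the difference between the groups. With the first principal component as a covariate, 0 of the 17 were lower at an unadjusted p under 0.05, beside 2.54% of all named genes. With the EIF1AY value as a covariate 3 were, beside 5.49%.

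Extracellular matrix and fibroblast genes were mostly higher. Of 17 tested matrix genes, 3 were higher and 0 lower at an unadjusted p under 0.05, with a median difference of 0.11, beside 4.1% of all genes higher. Of 6 tested fibroblast markers, 3 were higher (LUM, FAP and THY1), and LUM belongs to both lists. COL1A2, also on both lists, went the other way (-0.046, unadjusted p = 0.37), as did TIMP1 (-0.15) and COL4A2 (-0.077) of the matrix list. The dimmer probe sets of THY1 differed by 0.15 (unadjusted p = 0.065) and -0.0064 (0.92). LUM, a collagen-binding proteoglycan, ranged from 9.97 to 11.64 (median 10.72) in PON3-high and from 9.59 to 11.33 (median 10.34) in PON3-low muscles, a difference of 0.35 ± 0.12 (SE, unadjusted p = 0.0041, adjusted p = 0.34). Without the 3 pigs nearest to the threshold on each side, 7 of the 17 matrix genes were higher, beside 7.15% of all named genes. With the first principal component as a covariate, 1 was, beside 2.03%. In these bulk samples, fewer cells of a type and less RNA per cell cannot be told apart.

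None of 10 slow fibre, 9 fast fibre and 12 glycolysis genes had an unadjusted p under 0.05, and the fast fibre genes differed by -0.0039 to 0.022. Muscle fibre markers such as MYH2 (14.72), MYLPF (14.70) and TNNT3 (14.29) averaged near the highest value of the arrays, 15.04. Whether differences are hidden so near the top of the range was not tested. Among mitochondrial genes, 0 were higher and 1 was lower of 28 oxidative phosphorylation genes, and 0 were higher and 3 lower (DLST, CS and PDHA1) of 19 TCA cycle genes, beside 5.75% of all named genes lower. In the fit with the first principal component 0 of the 19 were lower, beside 2.54% of all named genes. None of 34 ribosomal protein genes and none of 19 heat shock genes had an unadjusted p under 0.05. None of the 5 adipocyte genes tested did either: FABP4, the fatty acid carrier of fat cells, averaged 10.91 in PON3-high and 10.96 in PON3-low muscles.

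EIF1AY, a Y-linked translation factor gene, and OCA2, a melanosome transporter gene, also fell into separate clusters. No association of either with the PON3 groups was shown, though the SE of these differences was wide. EIF1AY lay in its upper cluster in 11 of 21 PON3-high pigs (52.4%) and in 15 of 38 PON3-low pigs (39.5%), and OCA2 in 17 (81.0%) and 29 (76.3%). The differences of 0.91 ± 0.92 (SE) for EIF1AY and 0.36 ± 0.53 (SE) for OCA2 did not pass the test. Within the PON3-high pigs, PON3 averaged 8.57 in both EIF1AY clusters. Within the PON3-low pigs it averaged 5.15 in the upper and 4.94 in the lower one.

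PON3 also varied inside each group, and a further fit asked whether other genes followed it among pigs on the same side of the threshold. Each probe set was fitted with a group term and a slope on the PON3 value centred in its group. In the PON3-low pigs this value was dim, in all but 1 below 6.28, where signals are compressed. Here 486 probe sets (4.06%) passed the adjusted threshold, 346 with a positive slope (2.89%) and 140 with a negative one (1.17%). Among named genes 195 passed (3.96%), of which 139 (2.82%) rose and 56 (1.14%) fell with PON3. Without the 3 pigs nearest to the threshold on each side, which left PON3 ranges of 4.16 to 5.62 and 8.30 to 8.95, 2 probe sets passed. One was MRAS, a Ras-related GTPase of muscle (slope 0.60 log2 per log2 unit of PON3, adjusted p = 0.0015), and the other, Ssc.18603.1.A1_at, had no symbol. The genes named below were chosen after their values were seen.

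The positive slopes included genes of fat storage and fatty acid synthesis. Of 5 tested adipocyte genes 2 rose with PON3, and of 6 tested lipogenesis genes 3 rose, beside 2.82% of all genes. The array held 10 adipocyte and 11 lipogenesis genes, and those not tested fell below the filter. CIDEA, a lipid droplet protein of fat cells, had a slope of 0.61 ± 0.11 (SE, adjusted p = 0.00044), and FABP4 one of 0.40 ± 0.12 (adjusted p = 0.037). Of the lipogenic enzymes, ELOVL6, a fatty acid elongase, and SCD, the stearoyl-CoA desaturase, both had slopes of 0.59, and the brightest probe set of FASN, the fatty acid synthase, had one of 0.47. The other 2 tested FASN probe sets had slopes of 0.057 and -0.050 that did not pass. CIDEA, SCD and the brightest probe set of FASN were dim, with means of 6.75, 6.80 and 6.68 beside a filter of 6.28. FABP4 averaged 10.94 and ELOVL6 7.49. DGAT2, which completes triglyceride synthesis, had a slope of 0.64, and RETSAT, a retinol saturase of fat tissue, one of 0.60. Without the 6 pigs nearest to the threshold CIDEA had a slope of 0.66 (adjusted p = 0.15) and FABP4 one of 0.48 (0.27), so these 2 slopes were no smaller but did not pass. The median slope of the 6 lipogenesis genes went from 0.32 to 0.28 and 0 passed. At an unadjusted p under 0.05, 5 of them rose with all pigs and 2 without the 6, beside 13.2% and 6.8% of all named genes.

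The strongest slopes outside fat metabolism included MGST1 (0.81), a microsomal glutathione transferase, PPP1R3B (0.79), a glycogen-targeting phosphatase subunit, and POSTN (0.69), a matrix protein. PSAT1 (0.66) makes serine, FST (0.62), follistatin, binds myostatin and activins, and CDO1 (0.61) breaks down cysteine. In the lists nearest to PON3 by function, 3 of 32 antioxidant genes rose, beside 2.82% of all named genes: MGST1, CAT (catalase, 0.26) and PRDX6 (0.15), a peroxiredoxin. Of 12 lipoprotein genes APOE rose (0.29, adjusted p = 0.0037), though its dimmer probe set had a slope of -0.065 that did not pass. Of 14 esterase and xenobiotic genes SULT1A3, a sulfotransferase, and ADH5, a formaldehyde dehydrogenase, rose. In the fit with the first principal component as a covariate 1 antioxidant, 1 lipoprotein and 0 esterase genes passed. Without the 6 pigs nearest to the threshold no gene of these lists passed in limma. At an unadjusted p under 0.05, 5, 3 and 4 of their genes rose without the 6 pigs, beside 6.8% of all named genes. PON2 had a slope of 0.097 that did not pass (adjusted p = 0.37).

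The largest negative slopes belonged to XIRP1 (-0.82), an actin-binding protein of striated muscle, TGIF1 (-0.60), a transcriptional repressor, ZFAND2A (-0.58), a stress-induced zinc finger protein, CEBPD (-0.57), an acute-phase transcription factor, SMAD1 (-0.55), a BMP signal transducer, and CREM (-0.54), a cAMP-responsive factor. TNFRSF12A (-0.52) is a receptor of the TNF family, and HSPB1 (-0.50) a small heat shock protein. TMEM140 (-0.50) and CSPP1 (-0.42), a ciliary protein, completed the 10. In the 3 PON3-low pigs nearest to the threshold HSPB1 stood at 14.08, 13.29 and 12.48, beside a median of 13.36 in the other PON3-low pigs.

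Taken separately, the groups gave fewer calls. In the PON3-low pigs alone 70 probe sets passed, of which 60 were among the 486, and without the 3 nearest to the threshold 10 passed, among them MGST1 (0.90), CIDEA (0.69), MRAS (0.59) and ALDOC (0.30). In the PON3-high pigs alone 8 passed, among them GALK2 (0.41), a sugar kinase, ITGB1 (-0.59), an integrin subunit, and SIK3 (-0.88), a salt-inducible kinase. Without the 3 nearest to the threshold, 0 passed in limma. In that fit 496 of the 11967 probe sets and 3.92% of named genes had an unadjusted p under 0.05. No probe set passed in both groups. A test of the difference between the slopes of the groups called 0 probe sets, with a smallest adjusted p of 0.72. In that test 616 of the 11967 probe sets and 4.69% of named genes had an unadjusted p under 0.05.

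**Figure D4:**
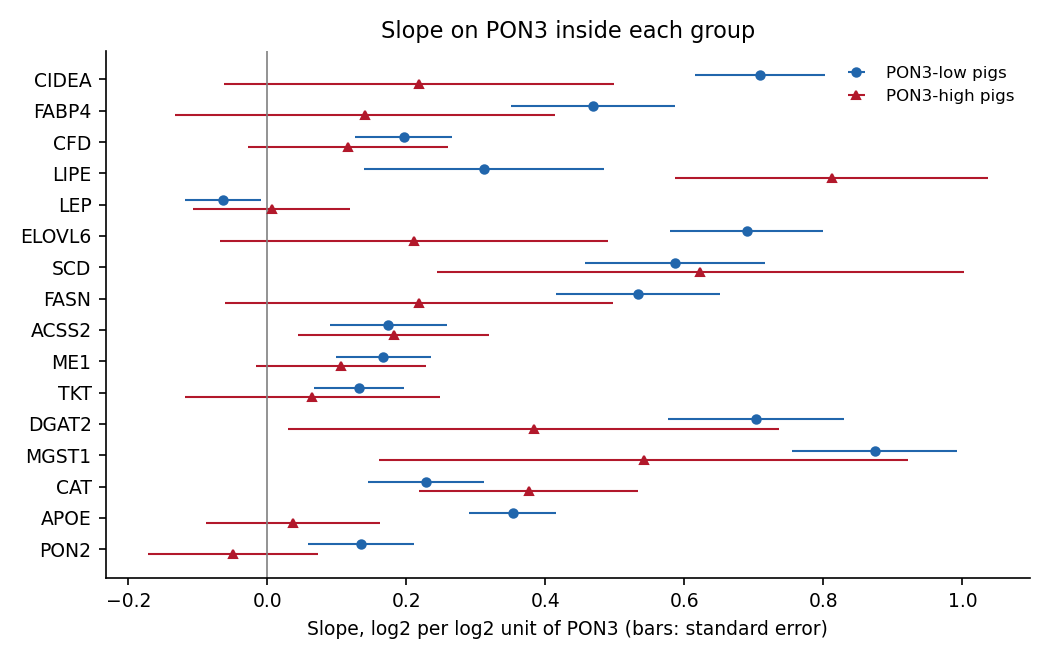
Slope on PON3 (log2 per log2 unit, horizontal axis) with its standard error for 16 genes, fitted in the PON3-low pigs (blue circles) and in the PON3-high pigs (red triangles) separately. CIDEA, ELOVL6 and MGST1 have slopes far above 0 in PON3-low pigs; no difference between the groups passed the test.

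For 5 adipocyte genes the relation to PON3 was also computed as a correlation inside each group, 10 relations in all with 100000 permutations each. CIDEA followed PON3 in the PON3-low pigs, with a Pearson r of 0.776 and a Spearman rho of 0.709 (permutation p = 1e-05 for both, the smallest they can give), and its slope there passed limma's test over all probe sets (adjusted p = 1.4e-05). With the 2 most extreme PON3 values of the group left out, r was 0.690. In the PON3-high pigs CIDEA had an r of 0.164 and a rho of 0.142 (permutation p = 0.48 and 0.54). CIDEA stood at 7.85, 7.63 and 7.14 in the 3 PON3-low pigs nearest to the threshold, compared with a median of 6.52 in the other PON3-low pigs. In the PON3-high pigs it ranged from 5.98 to 7.82, with a median of 6.74.

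For FABP4 and CFD, the complement factor made by fat cells, the relation in the PON3-low pigs was weaker, with an r of 0.537 (rho 0.552, permutation p = 0.00047 and 0.00044) and of 0.419 (rho 0.393, 0.0089 and 0.015). With the 2 most extreme PON3 values left out, r was 0.524 and 0.323. Neither slope passed limma's test over all probe sets in these pigs (adjusted p = 0.052 and 0.18). In the PON3-high pigs FABP4 had an r of 0.109 (rho -0.051, permutation p = 0.64 and 0.83). CFD had an r of 0.176 there (rho 0.157, permutation p = 0.45 and 0.50). For LIPE, the hormone-sensitive lipase, r was 0.613 in the PON3-high pigs (rho 0.609, permutation p = 0.0025 and 0.0042) and 0.512 with the 2 extremes left out, and its slope there did not pass either (adjusted p = 0.13). In the PON3-low pigs LIPE had an r of 0.278 (rho 0.300, permutation p = 0.090 and 0.068). LEP, the leptin gene, had an r of -0.192 and 0.013 in the PON3-low and PON3-high pigs. No difference of these slopes between the groups passed the test given above.

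**Figure D5:**
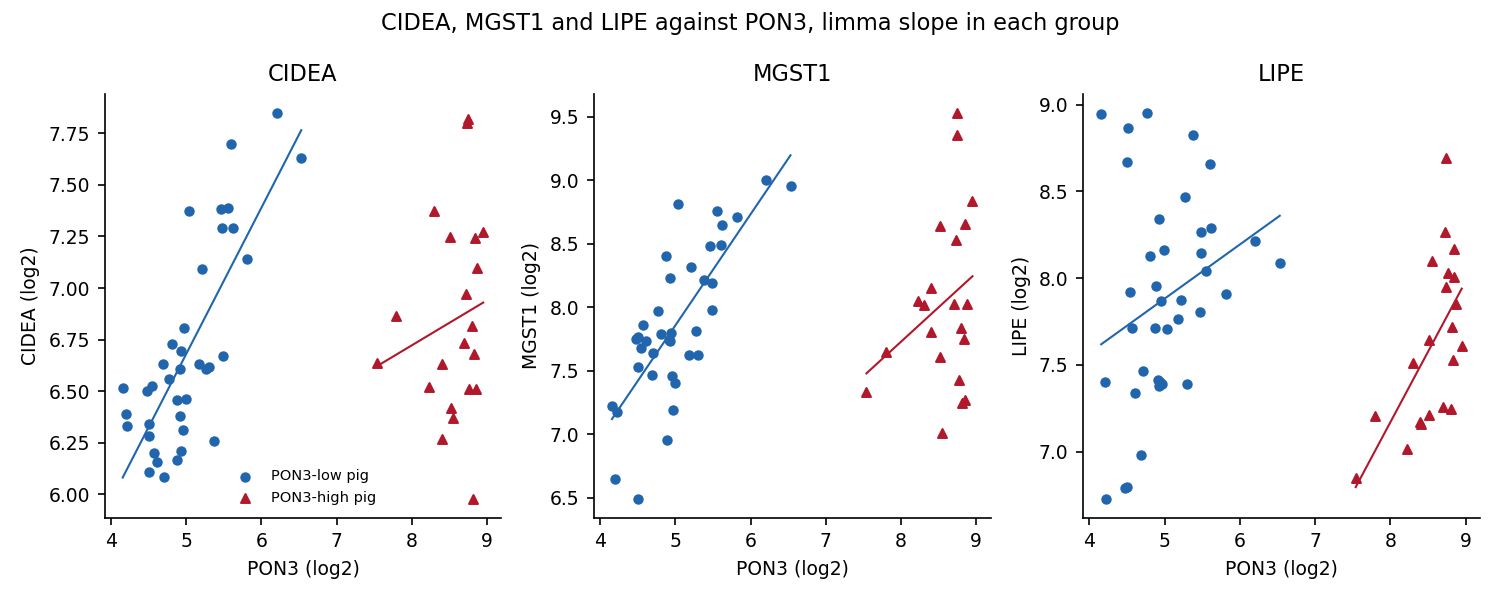
CIDEA, MGST1 and LIPE (log2, vertical axes) against PON3 (log2, horizontal axes) in PON3-low pigs (blue circles) and PON3-high pigs (red triangles), with the slope fitted in each group as a line. CIDEA and MGST1 rise with PON3 among PON3-low pigs, while both groups cover the same range of CIDEA.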

How the data were processed

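The authors deposited 1 normalised value per probe set and array; the submitters' processing notes name GCRMA. The sources used here give neither its version nor the log base, and the deposited values, from 2.39 to 15.04, were read as log2. GCRMA compresses differences of dim genes, and no molecule counts lie behind the values, so the number of arrays limits the precision. Array medians lay between 6.23 and 6.30, correlations between arrays from 0.969 to 0.995, and no arrays were identical.

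Of 24123 probe sets, 188 were controls. A platform annotation gave 1 symbol for 10099, several for 198 and none for 13826; Entrez identifiers updated 9989. The brighter part of the remaining probe sets, with means of at least their median (6.28), was tested, 11967 without PON3. Tests used limma 3.58.1 (lmFit, eBayes) in R 4.3.3, with Benjamini-Hochberg adjustment; correlations and figures used Python 3.11.15 with matplotlib 3.10.9, scipy 1.17.1, pandas 2.3.3 and numpy 2.4.6. The fit was tested on simulated data. The members, gene lists and tests were chosen with earlier results of these data known. Named genes were the 15 of smallest p because fewer than 10 passed, the unnamed probe sets of smallest p, the paraoxonase family, neighbours of PON3, up to 4 members of each list, the genes of extreme r to PON3, and EIF1AY and OCA2. RBM18, the genes named for slopes and further list members were chosen after their values were seen. The lists held 767 genes; the array measured 541 and 454 were tested. Alternatives covered the filter, normalisation, threshold, covariates, array weights and pigs left out.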

Additional observations from a re-analysis of the deposited data

How the results depend on the processing

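The 32 features named by smallest p, by position beside PON3 or for their separate clusters had 413 alternative values. Only Ssc.2217.2.S1_at among them had passed, so for the others staying on the same side of the threshold was largely set in advance. Alternatives of the filter, of eBayes and the threshold of 7.5 left the differences unchanged. Of the 413 values, 407 kept their direction and side of the threshold. The exceptions were Ssc.2217.2.S1_at, with a slope of 0.0753 (adjusted p = 0.061) when the PON3 value replaced the groups, Ssc.11821.1.A1_at, which passed at -0.2525 (adjusted p = 0.041) with a threshold of 6.5, and neighbours near 0 that changed sign: PEG10, at 0.0707 with the first principal component as a covariate, and BET1, at -0.0014 with the PON3 value, -0.0024 with array weights and -0.0180 with the component. The count of 1 probe set became 0 with the PON3 value in place of the groups (2139 at an unadjusted p under 0.05), 2 with array weights, 2 among the 6000 brightest probe sets and 3 with a threshold of 6.5, which placed 22 pigs in the high group. The added probe set in the last 3 was the dimmer one of RBM18, joined at 6.5 by Ssc.11821.1.A1_at. A threshold of 7.5 gave the same groups. The count of 486 slopes inside the groups became 8 in PON3-high pigs alone and 0 there without the 3 nearest to the threshold. In that last fit 496 of 11967 probe sets had an unadjusted p under 0.05. The count became 70 in PON3-low pigs alone and 10 there without the 3 nearest. It became 73 with the first principal component as a covariate and 2 without the 3 nearest on each side. The cause was not tested. The alternatives for the slopes other than each group alone and no filter, and the component for the lists, were chosen after seeing the data. Among the list medians, with the component as a covariate, heat shock went from -0.056 to 0.10, immediate early from -0.19 to -0.082, fasting from -0.17 to -0.099 and proteasome from -0.095 to -0.046, and lipogenesis went from 0.11 to 0.19 without the 3 pigs nearest on each side. No paired analysis was possible because the pigs carry only their own numbers. The component was computed from the probe sets tested. Signal near background limits PON3-low values and dim markers.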

Other observations

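No tested heat shock or cholesterol synthesis gene differed between PON3-high and PON3-low muscles at an unadjusted p under 0.05. Some of these genes had slopes on PON3 inside the groups that passed the adjusted threshold. Of 19 tested heat shock genes 4 fell with PON3, beside 1.14% of all named genes: HSPB1 (-0.50), HSPB8 (-0.39), BAG3 (-0.36) and STIP1 (-0.27), chaperones and co-chaperones of the stress response. The median slope of the 19 was -0.20. Without the 3 pigs nearest to the threshold on each side it was -0.26 and 0 passed in limma, with 12 lower at an unadjusted p under 0.05, beside 6.91% of all named genes. With the first principal component as a covariate the median was -0.038 and 0 passed, with 1 higher and 3 lower at an unadjusted p under 0.05, beside 5.44% of all named genes. Of 10 tested cholesterol synthesis genes 3 rose, beside 2.82% of all named genes. Among them were MSMO1 (0.24), a sterol methyl oxidase, and HMGCS1 (0.19), the HMG-CoA synthase. Without the same 6 pigs 0 of the 10 passed in limma, while their median slope went from 0.13 to 0.15. At an unadjusted p under 0.05, 3 of the 10 rose in that fit, beside 6.8% of all named genes.

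Matrix and fibroblast genes had positive slopes as well: 3 of 17 matrix genes rose (POSTN, COL15A1 and SPARC), as did 2 of 6 fibroblast markers (THY1, slope 0.47, and FAP, 0.33), beside 2.82% of all named genes. The dimmer probe set of SPARC had a slope of -0.062 that did not pass. The dimmer probe sets of THY1 had slopes of 0.26 (limma adjusted p = 0.036) and 0.096 (0.35). With the first principal component as a covariate 0 genes of either list passed in limma. At an unadjusted p under 0.05, 6 matrix and 1 fibroblast genes rose in that fit, beside 12% of all named genes. Without the 6 pigs nearest to the threshold 0 passed, with 2 and 2 rising at an unadjusted p under 0.05, beside 6.8%. None of the 9 tested antigen presentation genes of MHC class I passed, and their median slope was 0.27 with a median difference of 0.14 between the groups. SLA-2, an MHC class I gene with close paralogs, differed by 0.31 (unadjusted p = 0.0091, adjusted p = 0.38).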
